A study of Mus musculus with 4 samples.

Results

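Expression of 10 genes of pericytes and of the PDGF axis was examined in insulinomas of RT2 mice, all 10 of them among the 18091 gene symbols of the value table. They were chosen by name for their role: the surface proteins Anpep, Cspg4 and Mcam, the potassium channel subunits Kcnj8 and Abcc9, the pericyte-enriched gene Higd1b, the receptors Pdgfrb and Pdgfra, and the ligands Pdgfb and Pdgfa. RNA came from 2 tumors of sEphB4-Alb treated mice and 2 tumors of PBS treated mice, each hybridized to 1 Illumina MouseRef-8 v2.0 array. sEphB4-Alb, the part of EphB4 that lies outside the cell joined to albumin, which blocks the binding of EphB4 to Ephrin-B2, was injected at 10 mg/kg, and both groups were injected intraperitoneally 3 times weekly between 10 weeks of age and harvest at 13.5 weeks. All mice carried the SV40 large T antigen under the insulin promoter with both Dll4 alleles intact, so the tumors of both groups arose from beta cells. Each group held 6 mice, and the labels do not tell which mouse gave which tumor, so that p-values reflect the spread between these 4 tumors and no more. The labels name the CD1 and the C57/BL6 background for every tumor, and the series' own design text names C57/BL6.

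Pericytes are the mural cells that sit on capillaries within the basement membrane they share with the endothelium. Sprouting endothelial cells secrete PDGF-B, the product of Pdgfb, and pericytes that carry its receptor, the product of Pdgfrb, are drawn along the new vessel. Pdgfa encodes the related ligand PDGF-A, which acts through the receptor encoded by Pdgfra and is used mainly between epithelium and fibroblast-like cells. NG2, the proteoglycan encoded by Cspg4, is a widely used pericyte marker and was stained for in the study's tumor sections.

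The arrays differed in overall brightness, with median signals of 160 and 169 in the sEphB4-Alb tumors and 136 and 142 in the PBS tumors. Signals were therefore background corrected, quantile normalized and put on the log2 scale, where a difference of 1 is 2-fold. Of the 18091 genes, 10370 exceeded the background cutoff of both arrays in 1 group or in both and were tested by limma. PBS tumor 1 stood apart, since its normalized values correlated at 0.945 to 0.953 across genes with the other tumors, against 0.975 to 0.979 among the other 3. Ins1 and Ins2, the insulin genes of beta cells, were above background on all 4 arrays, while Slc2a2, the beta cell glucose transporter, was above it on none. Xist, expressed from the inactive X chromosome, was at 8.21 and 9.16 in the sEphB4-Alb tumors and, below the background cutoff, at 6.46 and 6.24 in the PBS tumors on the normalized log2 scale, while the Y-linked Ddx3y was at 6.47 and 7.16 in the sEphB4-Alb tumors and at 8.84 and 9.41 in the PBS tumors. In the sEphB4-Alb tumors both Xist and Ddx3y were thus above the background cutoff. The sex of the mice and the treatment therefore cannot be told apart, although the study's legends name male mice. Whether each array holds RNA of 1 mouse alone was not tested.

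All 10 genes passed the filter. Abcc9, Higd1b and Pdgfrb passed through the sEphB4-Alb tumors alone, being above background in 1 PBS tumor each. For these 3 the filter selected on the sEphB4-Alb group. Fold changes were positive for 8 of the 10 genes and negative for 2, against 47.6% positive among all genes tested. In Anpep, Mcam, Kcnj8 and Pdgfrb, 4 of the 10 genes, each sEphB4-Alb tumor exceeded each PBS tumor, an order found in 18.5% of all genes tested. In 6 genes the groups overlapped, and in 0 were both sEphB4-Alb tumors below both PBS tumors, an order found in 20.8% of all genes. The median log2 fold change of the 10 genes was 0.27, beside -0.02 over all genes tested. After median scaling, which gave all genes a median of 0.26, the 10 genes lay 0.084 above it. With limma, 0 of the 10 genes passed an adjusted p of 0.05, as did 0% of all genes. Before adjustment, 1 of the 10, Anpep, had a p under 0.05, against 6.46% of all genes (3.79% higher and 2.67% lower). Of the 10 genes, 0 exceeded 2-fold at such a p, against 1.15% of all genes (0.984% higher and 0.164% lower). The Mann-Whitney-Wilcoxon test named in the study's methods could give no p under 0.333 with 2 tumors against 2.

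**Figure D1:**
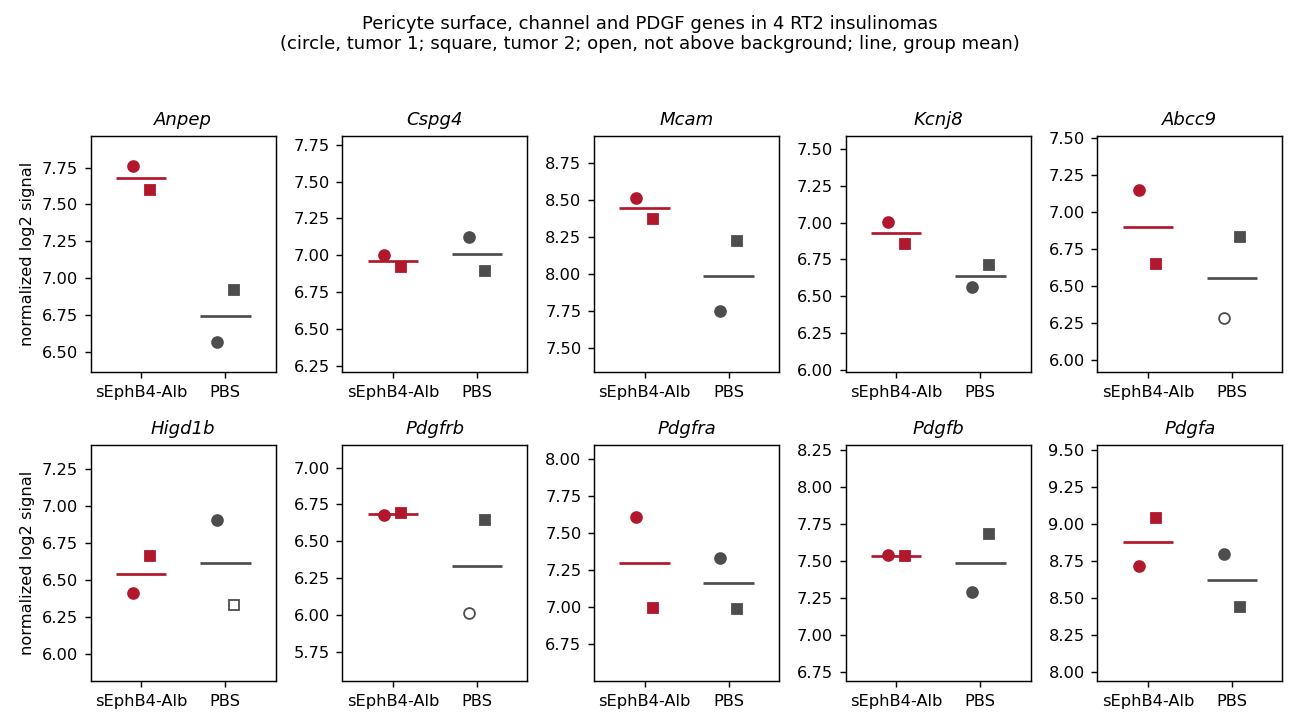
Normalized log2 signal (vertical axis, the same span of log2 units in every panel) of the 10 genes in the 2 sEphB4-Alb tumors (red) and the 2 PBS tumors (grey), with tumor 1 as circles, tumor 2 as squares, open symbols for signals not above background and lines for group means. Anpep, Mcam, Kcnj8 and Pdgfrb show both sEphB4-Alb tumors above both PBS tumors, and Pdgfrb does so by a margin that is small beside the gap between its PBS tumors.

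Anpep encodes aminopeptidase N (CD13), an ectoenzyme on pericytes that is also found on myeloid cells and on the brush border of epithelia. Its normalized log2 signal was 7.76 and 7.60 in the sEphB4-Alb tumors, against 6.57 and 6.92 in the PBS tumors. The groups were clearly apart, with a difference larger than the gap within either of them. Anpep was 1.91-fold higher, a log2 fold change of 0.93 with a standard error of 0.20 and a 95% confidence interval of 0.42 to 1.45, with an unadjusted p of 0.00556 and an adjusted p of 0.742 from limma. This fold was the 203rd highest of the 10370 genes. On the deposited scale the signals were 307 and 321 in the sEphB4-Alb tumors and 135 and 165 in the PBS tumors, and that of PBS tumor 1 was 1.00 times the cutoff for background. Part of the fold therefore rests on a value that cannot be told from background, and with a cutoff of 3 spreads PBS tumor 1 was below it. Whether Anpep exceeded 2-fold depended on the processing. Its log2 fold change was 1.23 with a smaller normexp offset, 1.11 without PBS tumor 2 and 0.76 without PBS tumor 1. The ratio of linear means of the deposited signals was 2.10, a log2 ratio of 1.07, which lay 0.59 above the median gene. Anpep is among the genes that the authors selected on these arrays, at a reported fold of 2.10, so its direction here is not independent evidence.

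Anpep and Kcnj8 were the 2 of the 10 genes whose group difference exceeded the gaps within both groups, and the promoters of these 2 genes are shown for that reason. How many of all genes tested meet this rule was not counted, so it only picks genes for display. Each is the 250 bases before the RefSeq gene start in GRCm38.p6, read on the gene's strand, with capitals for the GC box GGGCGG on either strand, the core of the site bound by Sp1 family factors. The window of Anpep is chr7:79848211-79848460 and that of Kcnj8 is chr6:142571615-142571864, both on the minus strand.
Anpep: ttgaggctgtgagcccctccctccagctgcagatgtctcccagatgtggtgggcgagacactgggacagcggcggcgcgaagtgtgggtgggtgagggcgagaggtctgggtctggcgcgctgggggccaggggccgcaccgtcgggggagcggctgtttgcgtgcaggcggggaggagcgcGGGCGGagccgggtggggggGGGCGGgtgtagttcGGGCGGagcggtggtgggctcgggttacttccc
Kcnj8: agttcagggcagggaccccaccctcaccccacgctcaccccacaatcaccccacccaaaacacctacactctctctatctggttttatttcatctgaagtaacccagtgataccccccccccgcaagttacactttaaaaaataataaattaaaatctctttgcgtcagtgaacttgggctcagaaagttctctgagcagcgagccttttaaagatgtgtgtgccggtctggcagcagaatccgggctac
The Anpep window held 3 GC boxes at 72.8% G and C and the Kcnj8 window held 0 at 49.2%. A GC box was present in 32.7% of 32851 RefSeq windows of this length, whose median G and C content was 52.4%. Windows were found for 7 of the 10 genes. GC boxes were also present in those of Cspg4 (2), Mcam (5), Abcc9 (1) and both windows of Pdgfa (1 and 2), and Pdgfra had 0. The windows of Abcc9, Pdgfa and Pdgfra lie inside the annotated span of the gene, not before it. The RBPJ core TGGGAA, searched on both strands because Notch signals through RBPJ, was found in the windows of Abcc9 and of 1 Pdgfa start, and in 21.6% of all windows. These are matches of letters and no evidence of binding.

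Mcam encodes CD146, an adhesion molecule of the immunoglobulin superfamily on pericytes, smooth muscle and endothelium. Its normalized log2 signal was 8.52 and 8.37 in the sEphB4-Alb tumors and 7.75 and 8.22 in the PBS tumors. Both treated tumors were higher, but PBS tumor 2 lay close to them. At 0.46, with a standard error of 0.22 and a 95% confidence interval of -0.11 to 1.02, the log2 fold change of Mcam had an adjusted p of 0.746 from limma, and it was 0.22 without PBS tumor 1 and 0.69 without PBS tumor 2. The difference was thus not larger than the gap of 0.47 between the PBS tumors.

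Cspg4 showed no such difference. The normalized log2 signal of this NG2 proteoglycan gene was 7.00 and 6.92 in the sEphB4-Alb tumors, against 7.12 and 6.89 in the PBS tumors, and the treated tumors lay between the PBS tumors. Its log2 fold change was -0.05 with a 95% confidence interval of -0.49 to 0.39, so that in folds the interval ran from 0.712 to 1.31 (adjusted p = 0.958 from limma). Cspg4 was above background on all 4 arrays, at 1.15 to 1.42 times the cutoff. RNA of a whole tumor was measured, in which the number of pericytes and the RNA per pericyte cannot be told apart. The study's NG2 staining scored the share of vessels lined by NG2 protein, which is another measure.

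Kcnj8 and Abcc9 encode Kir6.1 and SUR2, the pore and the sulfonylurea receptor subunit of the ATP-sensitive potassium channel of vascular mural cells, and are neighbouring genes with 0 annotated genes between them on chromosome 6. Kcnj8 had normalized log2 signals of 7.01 and 6.86 in the sEphB4-Alb tumors and 6.57 and 6.71 in the PBS tumors. Its groups were apart by a narrow margin, at a log2 fold change of 0.29 (standard error 0.16, adjusted p = 0.756 from limma). Median scaling put Kcnj8 0.10 above the median gene. The Kcnj8 signal of PBS tumor 1 was 1.00 times the background cutoff, so it was close to undetectable there. Abcc9 had values of 7.15 and 6.65 in the sEphB4-Alb tumors and 6.29 and 6.83 in the PBS tumors. Here the groups overlapped, and PBS tumor 1 was not above background. The log2 fold change of Abcc9 was 0.34 (standard error 0.28, adjusted p = 0.801 from limma), and 0.07 without PBS tumor 1. Both channel genes were lowest in PBS tumor 1 and highest in sEphB4-Alb tumor 1.

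Beta cells build the same type of channel with another receptor subunit, SUR1, encoded by Abcc8. Abcc8 was at 9.49 and 9.63 in the sEphB4-Alb tumors and at 9.79 and 10.08 in the PBS tumors, so both treated tumors were lower. Its log2 fold change was -0.37 (standard error 0.18, adjusted p = 0.746 from limma), opposite in sign to that of Abcc9. Whether the fold changes of Abcc8 and Abcc9 differ was not tested. Kcnj11, the pore subunit of the beta cell channel, was sought but was not among the gene symbols of the value table.

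Higd1b, a member of the hypoxia-inducible domain family that is enriched in pericytes, was close to background, at 0.964 to 1.20 times the cutoff. Its normalized log2 signal was 6.41 and 6.66 in the sEphB4-Alb tumors and 6.90 and 6.33 in the PBS tumors, and the groups overlapped. PBS tumor 2 was not above background, and with a cutoff of 3 spreads the gene was not tested. The log2 fold change was -0.08 (standard error 0.25, adjusted p = 0.953 from limma), and it was 0.21 without PBS tumor 1 and -0.37 without PBS tumor 2. No direction can therefore be given. Of its family, Higd2a had a log2 fold change of -0.01. Higd1a was at 6.41 and 6.92 in the sEphB4-Alb tumors and, not above background, at 6.20 and 6.37 in the PBS tumors, and Higd1c was above background on 0 arrays.

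The receptor gene Pdgfrb was higher in both sEphB4-Alb tumors, with normalized log2 signals of 6.68 and 6.69, against 6.02 and 6.65 in the PBS tumors. The treated tumors were nearly equal and only just above PBS tumor 2, while PBS tumor 1 was at 0.866 times the background cutoff. Pdgfrb thus had a log2 fold change of 0.35, with a standard error of 0.25, an interval at 95% confidence of -0.30 to 1.01 and an adjusted p of 0.786 from limma. It came almost wholly from PBS tumor 1, being 0.04 without it and 0.67 without PBS tumor 2. With median scaling Pdgfrb lay 0.02 above the median gene, and the ratio of linear means lay at -0.076 relative to it.

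Pdgfra, the PDGF receptor gene of fibroblasts and other mesenchymal cells, had normalized log2 signals of 7.61 and 6.99 in the sEphB4-Alb tumors and 7.33 and 6.99 in the PBS tumors. In each group tumor 1 was the higher, and the groups overlapped. The log2 fold change of 0.14 (standard error 0.27, adjusted p = 0.912 from limma) became -0.17 without sEphB4-Alb tumor 1. Pdgfrb and Pdgfra thus did not follow one another across the 4 tumors.

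The ligand gene Pdgfb had a normalized log2 signal of 7.54 and 7.53 in the sEphB4-Alb tumors, against 7.29 and 7.68 in the PBS tumors. As with Cspg4, the treated tumors lay between the PBS tumors, at a log2 fold change of 0.05 whose 95% confidence interval ran from -0.46 to 0.56 (standard error 0.20, adjusted p = 0.963 from limma). Pdgfa was the member farthest above background, at 2.37 to 5.79 times the cutoff. It was at 8.71 and 9.04 in the sEphB4-Alb tumors and at 8.80 and 8.44 in the PBS tumors, with overlapping groups. Its log2 fold change was 0.26 (standard error 0.22, adjusted p = 0.802 from limma), and median scaling placed it 0.47 above the median gene, a distance that was not tested. Leaving out 1 tumor gave 0.08 to 0.44.

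**Figure D2:**
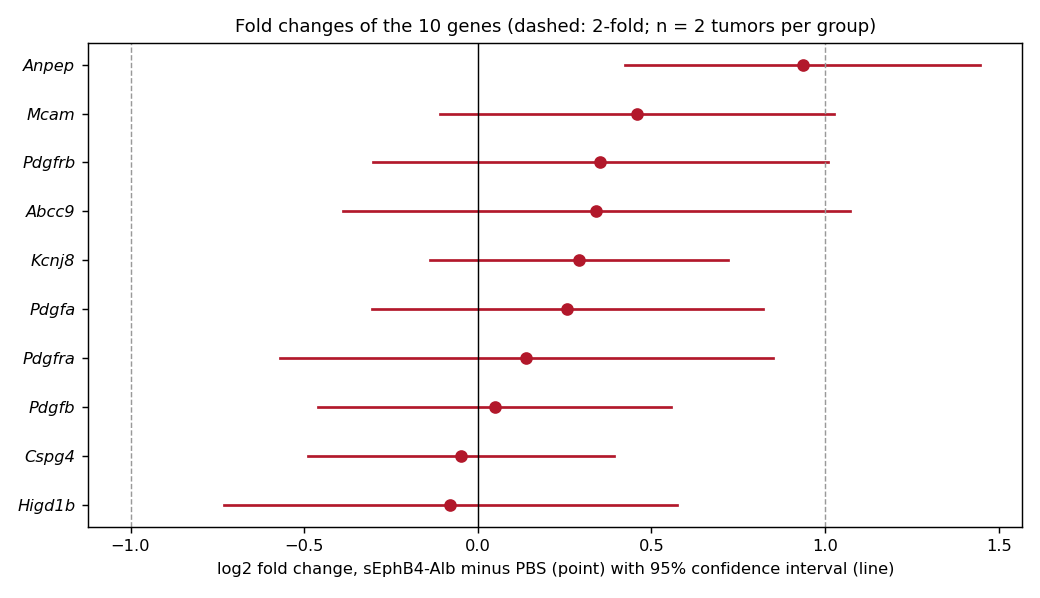
Log2 fold change of sEphB4-Alb over PBS (horizontal axis) for each of the 10 genes, with 95% confidence intervals from limma and dashed lines at 2-fold. Only the interval of Anpep, 0.42 to 1.45, excludes 0, and the other 9 intervals include it.

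Across the 10 genes, PBS tumor 1 held the lowest value of 6 and PBS tumor 2 that of 4, while 0 genes were lowest in a sEphB4-Alb tumor. The highest value fell to sEphB4-Alb tumor 1 in 5 genes, to sEphB4-Alb tumor 2 in 2, to PBS tumor 1 in 2 and to PBS tumor 2 in 1. The gap between the PBS tumors exceeded that between the sEphB4-Alb tumors in 8 of the 10 genes. For most of the 10 genes the PBS tumors were thus the more widely spread pair. Such counts were not made over all genes, and PBS tumor 1 stood apart across genes. They therefore describe the 10 genes and show no trait particular to them.

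Profiles over the 4 tumors were compared between genes by the root mean square distance of centred log2 values, as a description. The genes closest to Anpep were Ms4a7, a macrophage-expressed membrane protein gene, at a distance of 0.041 on the log2 scale, Spon2, which encodes a secreted matrix protein, at 0.0708 and Anxa11, an annexin gene, at 0.0719. Within a distance of 0.1 of Anpep lay 9 of the other 10369 genes. Closest to Pdgfra were Fbln2, the matrix protein fibulin 2, at 0.0398, Igfbp4, an IGF binding protein gene, at 0.048 and Dusp28 at 0.0514, and 41 genes lay within 0.1. Mcam, Pdgfrb, Abcc9, Pdgfa and Higd1b had 99 to 352 genes within 0.1, so with 4 tumors their profiles single out no small set of genes.

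Among other genes of mural cells, 25 of 27 listed were on the array and 16 were tested, with a positive fold change in 13, a negative one in 3 and a median of 0.21. Of the 16, Notch3, Foxf2 and Vtn were not above background in PBS tumor 1 and were kept by the filter through the sEphB4-Alb tumors, so that their counts lend no support to a direction. In the whole list 3 genes had p under 0.05 before adjustment, all of them higher in the sEphB4-Alb tumors, and 0 passed an adjusted p of 0.05 from limma. These 3 were Rgs5, a regulator of G protein signaling in pericytes, at 0.71 (standard error 0.23), Acta2, smooth muscle actin, at 0.51 (standard error 0.19), and Foxf2, a transcription factor of brain pericytes, at 0.47 (standard error 0.18), the last of them dim in PBS tumor 1. Rgs5 and Acta2 are also genes that the authors selected on these arrays. The paper also reports higher Rgs5 by quantitative RT-PCR on the same RNA and in a treated co-culture of smooth muscle and endothelial cells. Ednra, an endothelin receptor gene, was at 1.20 with a standard error of 0.55, and Notch3 at 0.58 with a standard error of 0.26. Des, the intermediate filament desmin, was lower in both sEphB4-Alb tumors, at 6.67 and 6.49 against 6.97 and 6.78 in the PBS tumors (log2 fold change -0.29, standard error 0.17). Smooth muscle myosin Myh11 and the pericyte genes Art3, Enpep, Steap4 and Tbx18 were above background on 0 arrays.

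Other genes of PDGF signaling showed no common direction. Of 7 genes for further ligands and for the proteases and receptors that process them, 5 were tested, with 4 above 0 and 1 below and a median of 0.07. The largest value was that of Furin, the protease that cleaves the PDGF-A and PDGF-B precursors, at 0.40 (standard error 0.17), with 9.91 and 9.86 in the sEphB4-Alb tumors and 9.37 and 9.61 in the PBS tumors. Pdgfc was at -0.22, and Pdgfd and the PDGF-C activating protease Plat were above background on 0 arrays. Of 19 genes that act downstream of PDGF receptors, 15 were tested, 7 above 0 and 8 below, with a median of -0.03. Both treated tumors were lower in 4 of them, among them the adaptor gene Gab1 at -0.26 and the transcription factor gene Srf at -0.22, and higher in 1, the receptor scaffold Slc9a3r1 at 0.32. In either list, 0 genes reached an unadjusted p of 0.05 from limma.

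Genes by which endothelium recruits or stabilizes mural cells had a median of 0.28 over the 11 tested of 16 on the array, 7 above 0 and 4 below. Tgfb1, which drives mural cell differentiation, was at 9.21 and 8.89 in the sEphB4-Alb tumors and at 7.46 and 8.62 in the PBS tumors. The groups did not overlap, and the log2 fold change was 1.01 (standard error 0.42, unadjusted p = 0.0617, adjusted p = 0.742 from limma). Ephb4, the receptor whose extracellular domain was given, was at -0.09 (standard error 0.16), and Efnb2, its ligand, was above background in 1 tumor and not tested. Angpt1, the Tie2 ligand of mural cells, was above background on 0 arrays.

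**Figure D3:**
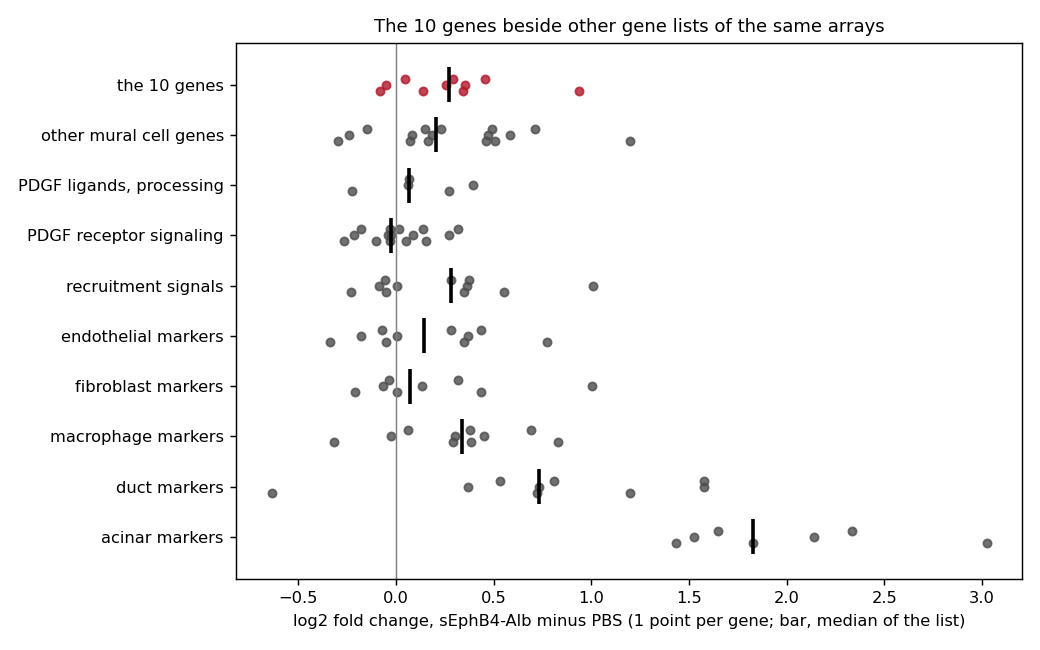
Log2 fold change of sEphB4-Alb over PBS (horizontal axis) for each gene tested, with a row for the 10 genes (red) and for each further list (grey) and black bars for list medians. The 10 genes have a median of 0.27, between those of other mural cell genes at 0.21 and of recruitment signals at 0.28, while duct and acinar markers have medians of 0.73 and 1.83, the duct median being that of Cftr, a gene below the cutoff in PBS tumors 1 and 2. The acinar median is that of Cel, a gene not above background in PBS tumor 1.

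Lists of markers of other cell types differed in how far they separated the groups. Summed signals cover every gene of a list on the array, also those not tested. Of the 9 duct markers, all tested, 7 were higher in both sEphB4-Alb tumors and 1 lower in both, with a median log2 fold change of 0.73 and summed normalized signals of 3106 and 3415 in the sEphB4-Alb tumors and 1242 and 2254 in the PBS tumors. The filter kept Muc1, Krt19, Cftr and Sox9 through the sEphB4-Alb tumors alone, with Cftr and Sox9 not above background in either PBS tumor, and the median is the value of Cftr, so that these counts are a description and lend no support to a direction. Krt8, Krt18 and Krt7, above background on all 4 arrays, were higher in both sEphB4-Alb tumors, and Spp1, likewise above it, overlapped. Of 7 acinar markers tested 1 was higher in both, with a median of 1.83. That median is the value of Cel, which was not above background in PBS tumor 1, and it lends no support to a direction. The acinar sum ranged from 7648 to 53173 in the sEphB4-Alb tumors and from 1594 to 12004 in the PBS tumors. Macrophage markers had a median of 0.34 over 10 tested, 6 of them higher in both, and Itgam was above background on 0 arrays. Of the 10, 8 had a positive fold change and 2 a negative one. The largest were C1qc at 0.83 (standard error 0.18) and C1qb at 0.69 (standard error 0.19). The macrophage sums were 10001 and 8220 in the sEphB4-Alb tumors and 12006 and 5353 in the PBS tumors. These sums leaned on Lyz2, at 11.46 and 11.27 in the sEphB4-Alb tumors and 12.84 and 9.94 in the PBS tumors. Duct epithelium and macrophages can carry CD13, and their part in the Anpep result was not tested. Fibroblast markers, which bear on Pdgfra, had a median of 0.07 over 8 tested, 2 of them higher in both. The fibroblast sums were 5832 and 4368 in the sEphB4-Alb tumors and 5253 and 4094 in the PBS tumors. Col1a1, a fibrillar collagen gene, was the 1 marker of this list past both the 2-fold and the unadjusted p threshold, at 8.51 and 8.52 in the sEphB4-Alb tumors and 7.54 and 7.48 in the PBS tumors (log2 fold change 1.01, standard error 0.15, adjusted p = 0.713 from limma). The summed fibroblast signal was higher in tumor 1 of each group, as was Pdgfra.

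Endothelial markers, which bear on Mcam and Pdgfb, had a median of 0.14 over 10 tested, with 2 higher and 2 lower in both sEphB4-Alb tumors. The endothelial sums were 3092 and 3224 in the sEphB4-Alb tumors and 2641 and 3396 in the PBS tumors, lowest in PBS tumor 1 like Mcam and Pdgfb. Vwf, Emcn, Cldn5, Eng, Tek and Tie1 were lowest there, Cldn5 and Tie1 not above background in it. Pecam1, Robo4, Egfl7 and Ramp2 were lowest in a sEphB4-Alb tumor. The part of endothelium in the values of Mcam and Pdgfb was not tested. Kdr and Erg were above background on 0 arrays. Beta cell markers had a median of 0.34 over 8 tested, 5 higher and 1 lower in both sEphB4-Alb tumors. Among the higher ones, Nkx6-1 and Pdx1 were not above background in PBS tumor 1 and were kept through the sEphB4-Alb tumors alone. The beta cell counts and median therefore lend no support to a direction. Of platelet markers 3 were tested, with a median of -0.05, and Itga2b and Gp1bb among them were not above background in PBS tumor 1. Tek, Tie1 and Eng stand in both the endothelial and the recruitment list.

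**Figure D4:**
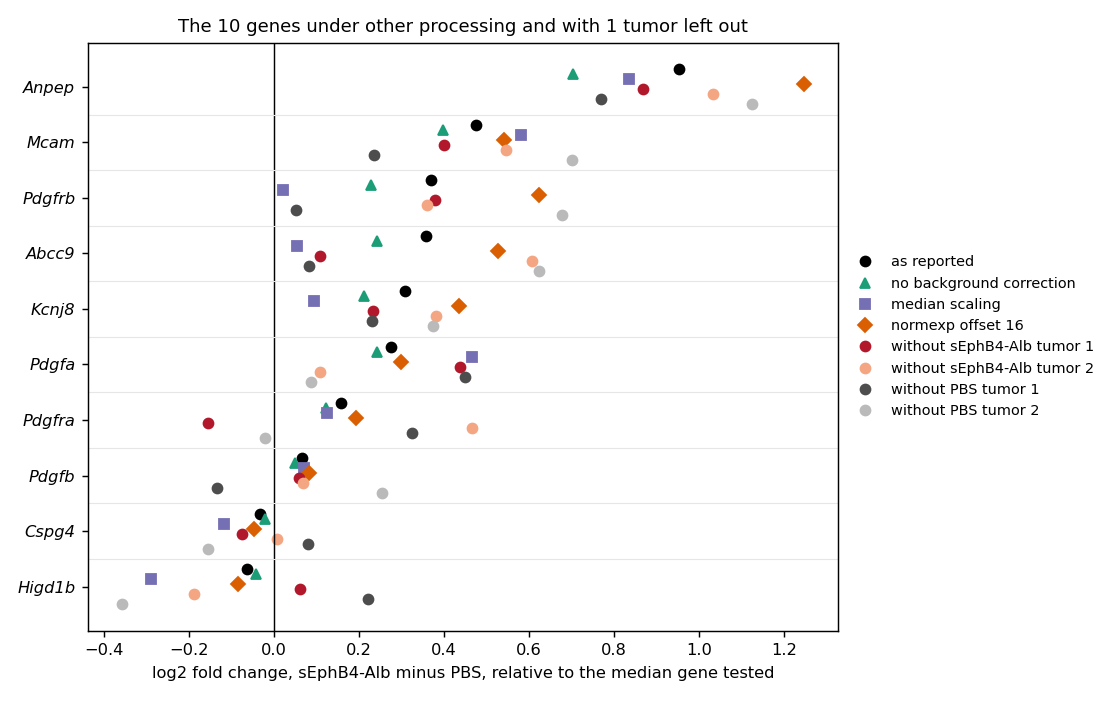
Log2 fold change of sEphB4-Alb over PBS relative to the median gene (horizontal axis) for each of the 10 genes as reported (black), under 3 other processing settings and with each tumor left out in turn. In the settings drawn Anpep lies between 0.70 and 1.25, against 0.59 for the ratio of linear means of the deposited signals, which is not drawn, while Cspg4, Higd1b, Pdgfb and Pdgfra cross 0.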

How the data were processed

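Tumor RNA was labelled as biotinylated cRNA and hybridized by the authors, whose deposited values are linear signal intensity with 1 row for each gene symbol. No array had a signal under 92.1 and array medians differed, as in values without background subtraction or scaling. The software is not given in the sources used here. In addition 8 columns, among them detection p-values, have names that match no single sample and were not used. The normexp correction (offset 50, no control probes) preceded quantile normalization and log2, and limma 3.58.1 (lmFit, eBayes) was run in R 4.3.3 with Benjamini-Hochberg adjustment over all genes tested. The cutoff for background was the mode of an array's signals plus 1.645 times the spread below it. This filter, the genes and the lists were chosen with earlier results of these data known. The thresholds of 2-fold and p of 0.05 follow the study.

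All 10 genes are named, with up to 4 genes per list by size of change, and Rgs5, Acta2, Des, Notch3 and Abcc8. Foxf2, Ephb4, Efnb2, dim list members and the genes that overlap between lists were named after their values were seen. Xist and Ddx3y were read as a check of the mice. Neighbouring profiles were sought for genes that ranged over at least 0.5 on the log2 scale. Alternatives were other background, scaling, filter and variance settings, a replicate block, leaving out each array, the ratio of linear means of the deposited signals and the Mann-Whitney-Wilcoxon test, and a cutoff of 3 spreads was added after the data were seen. Of the gene symbols 14090 matched the GRCm38.p6 RefSeq table directly. The fit was tested on simulated data. The number of arrays limits the precision. Figures were drawn with matplotlib 3.10.9.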

Additional observations from a re-analysis of the deposited data

How the results depend on the processing

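Of the 10 genes, 0 passed both the 2-fold and the unadjusted p threshold as reported, and 1, Anpep, did at a fold threshold of 1.5, after median scaling, with a normexp offset of 16 and without sEphB4-Alb tumor 2 or PBS tumor 2, where leaving out 1 tumor gave 0 to 1. After median scaling Anpep did so only with the shift of all genes included, since it lay 0.84 above the median gene. Without normalization between arrays 3 did, at a median of all genes of 0.59. The count over all genes was 119 as reported, 391 at a fold threshold of 1.5, 74 without background correction, 306 after median scaling (299 higher and 7 lower, against 102 and 17 as reported), 1131 without normalization (1128 and 3), 40 without moderation, 188 with the offset of 16, and 108 to 464 with 1 tumor left out, lowest without PBS tumor 1 and highest without PBS tumor 2 (296 higher and 168 lower). The median of the 10 genes was 0.27, against 0.084 above the median gene both after median scaling and without normalization, where all genes shifted by 0.26 and 0.59; the cause was not tested. It was 0.15 to 0.36 with 1 tumor left out. As ratios of linear means of the deposited signals, relative to the median gene, Anpep was at 0.59, Kcnj8 at 0.0073, Abcc9 at -0.024 and Pdgfrb at -0.076, so that the sign of Abcc9 and Pdgfrb turned. Signs also turned where a tumor was left out, where Cspg4 ranged over -0.16 to 0.067, Higd1b over -0.37 to 0.21, Pdgfb over -0.15 to 0.24 and Pdgfra over -0.17 to 0.45. The tumors whose absence turned the sign were PBS tumor 1 for Cspg4, Higd1b and Pdgfb, sEphB4-Alb tumor 1 for Higd1b (0.044) and Pdgfra, and PBS tumor 2 for Pdgfra (-0.031). Replicate numbers did not pair the tumors (correlation of deviations 0.04 over 10370 genes, with only 2 pairs), and with the replicate block the 10 genes kept their calls, Anpep at an unadjusted p of 0.0101, while the count over all genes was 177. Mcam at 0.69 and Pdgfrb at 0.67 had an unadjusted p under 0.05 without PBS tumor 2, where the spread came from the sEphB4-Alb pair, the lone PBS tumor is assumed to vary like it, and Pdgfrb was not above background in that tumor. Higd1b, Pdgfrb, Abcc9, Kcnj8 and Anpep each had a PBS signal below or at the cutoff. The value under another deposited table was not run, since its columns match no single sample.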
